A study of Xenopus tropicalis with 44 samples.

Results

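The genes described here encode E2F transcription factors (e2f1, e2f3, e2f4, e2f5, e2f7 and e2f8), their DP partners (tfdp1 and tfdp2) and the pocket proteins that restrain them (rb1 and rbl1). They were taken by gene name from an RNA-seq count table of early Xenopus tropicalis embryos, and they are 10 of its 28778 genes. All 10 passed the filter on low counts, which 16064 genes passed in all. The library labels give 22 groups of whole embryos with 2 libraries each. Embryos injected with morpholinos against E2F1 and OTX1 together (double MO) and against OTX1 alone (OTX1 MO) were taken at stages 7 and 8. Embryos with the E2F1 morpholino alone (E2F1 MO) were taken at stages 3 to 8, and embryos with the E2F1 morpholino plus E2F1 mRNA (E2F1 rescue) at stages 6 to 8. Wild-type embryos (WT), whose titles name no injection, were taken at stages 3 to 10 and 13. These stages run through cleavage, blastula, early gastrula and early neurula. A morpholino is an antisense oligonucleotide that blocks translation or splicing of its target RNA. No group with a control morpholino was analysed here, so the act of injection and the loss of the target cannot be told apart in any injected group against WT. Whether the paired libraries of a group were made from embryos of different clutches is not given in the labels. The p-values therefore rest on a spread between libraries that may be technical.

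E2F proteins sit on the promoters of genes for DNA replication and cell division, most of them as a pair with a DP protein. Pocket proteins bind E2Fs and keep these promoters silent until cyclin-dependent kinases phosphorylate the pocket protein and free the E2F. From mammalian work E2F1 and E2F3 are classed as activators, E2F4 and E2F5 as repressors that act with pocket proteins, and E2F7 and E2F8 as atypical repressors that bind DNA without a DP partner. Frog cleavage cycles run fast on RNA and protein stored in the egg, and large-scale transcription from the embryo's own genome begins at the midblastula transition around stage 8.

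Levels are given in CPM, read counts scaled to the library size and its TMM factor, and levels of different genes are set side by side only in RPKM, which is CPM per kilobase of gene length. A gene was called when edgeR's quasi-likelihood test gave a Benjamini-Hochberg adjusted p under 0.05 over all 16064 genes. A log2 change is that of the first-named group over the second. Library totals ran between 9266513 and 37174326 counts, with a median of 20541736, and a count of 3 stood for 0.0706 to 0.329 CPM, a limit that covers counting error only. The 10 maternal marker RNAs summed to 776 to 4872 CPM in the 44 libraries. Their highest sums, 4702 to 4872 CPM, were those of WT stage 10, above the 3812 to 3928 CPM of WT stage 3. The 16 listed adult blood, liver and follicle markers found in the table summed to at most 4.81 CPM. The 11 zygotic marker RNAs found in the table, such as mix1, sia1 and gsc, summed to 2.69 to 3.06 CPM in double MO, 3.07 to 4.30 CPM in OTX1 MO, 36.8 to 37.4 CPM in E2F1 MO and 0.654 to 0.733 CPM in E2F1 rescue at stage 7, against 0.937 to 1.02 CPM in WT. At stage 8 the sum was 10.6 to 12.6 CPM in double MO, 16.7 to 21.2 CPM in OTX1 MO, 40.2 to 40.6 CPM in E2F1 MO and 4.35 to 4.71 CPM in E2F1 rescue, against 52.5 to 52.6 CPM in WT. Some RNAs were at 0 in both libraries of 1 group and averaged at least 5 CPM in the other. In E2F1 MO against WT there were 0 such genes at stages 3 to 6, but 2 absent in E2F1 MO and 10 absent in WT at stage 7, and 5 and 5 at stage 8. In E2F1 rescue against E2F1 MO 23 were absent in E2F1 rescue and 4 in E2F1 MO at stage 7, and 3 and 1 at stage 8. In E2F1 rescue against WT 2 were absent in E2F1 rescue and 10 in WT at stage 7, and 15 and 6 at stage 8. In OTX1 MO against WT 4 were absent in OTX1 MO and 5 in WT at stage 7, and 10 and 9 at stage 8. In double MO against WT 5 and 5 were absent at stage 7, and 9 in double MO and 7 in WT at stage 8. In double MO against E2F1 MO 6 were absent in double MO and 8 in E2F1 MO at stage 7, and 5 and 5 at stage 8, whereas in double MO against OTX1 MO there were 0 at both stages. Between WT embryos of stages 7 and 6 there were 10 absent at stage 7 and 4 absent at stage 6, and between stages 6 and 5 there were 0. The table's headers write the stage in one style for the stage 7 and 8 columns of WT, OTX1 MO and double MO and in another for E2F1 MO and E2F1 rescue. The WT columns of stages 6, 9, 10 and 13 have the style of E2F1 MO and E2F1 rescue. WT stage 7 over 6 and 9 over 8, and the E2F1 MO effect at stage 7 minus 6, therefore cross the styles too. So does the interaction of the morpholinos given below, in which E2F1 MO is the only group with the second style. The part of these differences in the results below that involve stage 7 or 8 was not tested.

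The E2F family changed its make-up during normal development. WT embryos began with e2f1 and e2f5 as the 2 most abundant e2f RNAs per length and reached stage 13 with e2f3, e2f8 and e2f7 in the lead. At stage 10 e2f7, e2f8 and rbl1 rose above stage 9, while e2f1, e2f4 and e2f5 fell. Between adjacent WT stages, 2 of the 10 genes were called for stage 4 over 3, where 8.81% of all genes tested were called, and 6 for stage 5 over 4 (all genes 27.3%). The counts were 2 for stage 6 over 5 (all genes 11.2%), 4 for stage 7 over 6 (46.9%) and 4 for stage 8 over 7 (44.1%). They were 5 for stage 9 over 8 (24.5%), 9 for stage 10 over 9 (63.2%) and 9 for stage 13 over 10 (76.9%). With 10 genes, 1 gene is a share of 10%, so the members' shares lay close to that of all genes at stages 7 and 8. Over the whole span from stage 3 to 9 all 10 were called, 7 higher and 3 lower at stage 9, where 71.2% of all genes were called, 39.7% higher and 31.5% lower. With total counts alone the share of higher calls among all called genes was 73.0%, against 55.8% with TMM factors. The median log2 change of the 10 was 0.76 in that comparison and that of all genes tested 0.22.

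**Figure D1:**
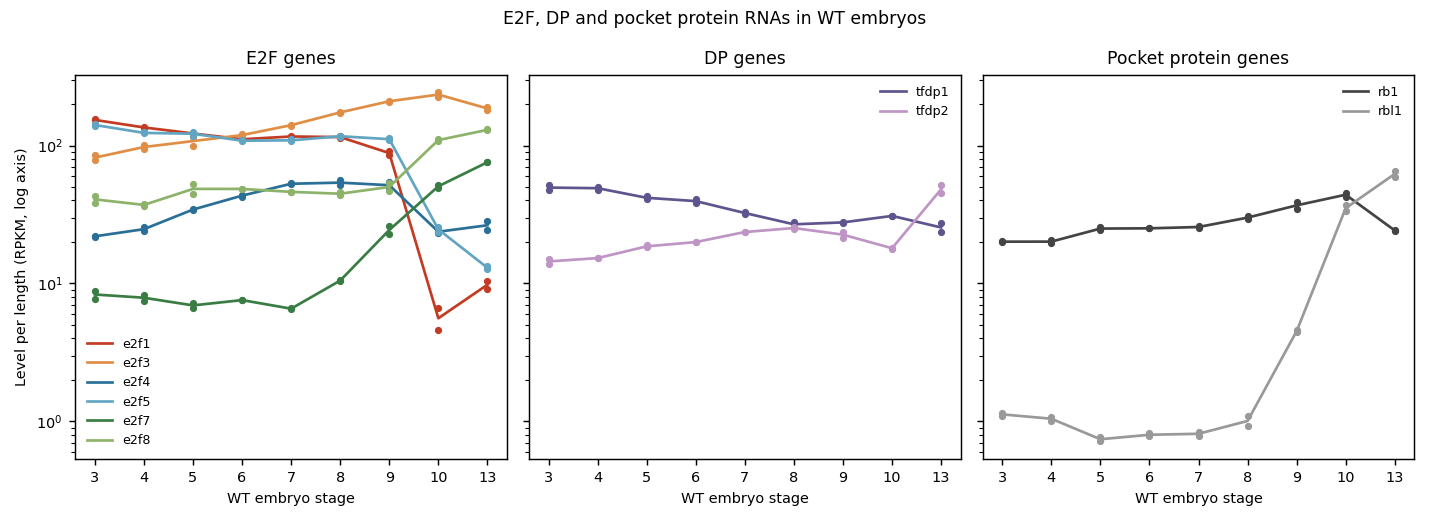
Level per length (RPKM, log axis) of the 6 e2f genes (left), the 2 DP genes (middle) and the 2 pocket protein genes (right) against WT embryo stage; points are the 2 libraries of a stage and lines join their means. The e2f1 line lies at 5.60 RPKM at stage 10, against 88.3 at stage 9, and the rbl1 line stands above that of rb1 at stage 13, at 62.4 RPKM for rbl1 and 24.2 for rb1.

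Among the activators, e2f1 was abundant through cleavage and low from the start of gastrulation. Its WT libraries held 646 and 655 CPM at stage 3, 475 and 467 CPM at stage 6 and 478 and 499 CPM at stage 8. They held 359 and 389 CPM at stage 9, 19.4 and 28.0 CPM at stage 10 and 38.8 and 44.2 CPM at stage 13. The 4 libraries of stages 10 and 13 thus lay far below every earlier WT library. At stage 10 e2f1 was 16.2-fold lower than at stage 9 (log2 change -4.01, SE 0.13, adjusted p = 7.2e-19), the largest change of any member between adjacent stages in the TMM-scaled fit. It then rose by stage 13 from that low level (log2 change 0.85, SE 0.15, adjusted p = 1.5e-05). Stage 9 had already fallen below stage 3 (log2 change -0.80, SE 0.11, adjusted p = 2.6e-07). Total counts alone moved the median of all genes by 0.56 in that comparison. As a share of all counts, e2f1 made up 0.0508% and 0.0505% at stage 3 and 0.0538% and 0.0561% at stage 8. At stage 9 it made up 0.0414% and 0.0445%. The decline of e2f1 up to stage 8 therefore hangs on the scaling, and so does the size of the fall at stage 9.

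The second activator, e2f3, ran the other way. Its WT libraries held 167 and 181 CPM at stage 3, 249 and 257 CPM at stage 6, 372 and 368.9 CPM at stage 8 and 443 and 449 CPM at stage 9. They reached 521 and 477 CPM at stage 10, the highest WT stage with TMM factors, and held 384 and 407 CPM at stage 13. No library of stages 8 to 13 overlapped with one of stages 3 to 7. At stage 9 e2f3 was 2.56-fold higher than at stage 3 (log2 change 1.36, SE 0.066, adjusted p = 4.4e-22), and the steps at stage 7 against 6 (log2 change 0.24, SE 0.064, adjusted p = 0.0018), 8 against 7 (log2 change 0.31, SE 0.064, adjusted p = 1.1e-04) and 9 against 8 (log2 change 0.27, SE 0.064, adjusted p = 0.0013) were each called. The step at stage 10 against 9 was 0.16 (SE 0.064, adjusted p = 0.026), and it turned to -0.078 with total counts alone, under which stage 10 is not above stage 9. The e2f3 call was lost without WT stage 9 replicate 1, WT stage 9 replicate 2 or WT stage 10 replicate 1 (adjusted p = 0.067 to 0.29), with total counts as the scaling and without the filter on low counts, and over all alternatives its adjusted p ran from 1.4e-04 to 0.29. At stage 13 it fell below stage 10 (log2 change -0.34, SE 0.065, adjusted p = 1.3e-05). In UCB_Xtro_10.0, the RefSeq assembly used here for names only, e2f3 overlaps LOC108647855, and the strand setting of the counting is not given in the sources used here. The e2f3 level may therefore hold reads of that gene.

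The pocket-dependent repressors e2f4 and e2f5 parted during cleavage and then fell together. e2f4 libraries held 40.1 and 40.7 CPM at stage 3, 63.1 and 63.3 CPM at stage 5, 97.9 and 96.6 CPM at stage 7 and 99.5 and 90.3 CPM at stage 9. At stage 10 they held 44.9 and 42.4 CPM, and at stage 13 45.1 and 52.1 CPM. The rise was called at stage 5 against 4 (log2 change 0.47, SE 0.074, adjusted p = 3.4e-06), 6 against 5 (log2 change 0.34, SE 0.070, adjusted p = 9.5e-04) and 7 against 6 (log2 change 0.29, SE 0.067, adjusted p = 4.4e-04), and the fall at stage 10 against 9 (log2 change -1.12, SE 0.075, adjusted p = 3.8e-17). Libraries of stages 7, 8 and 9 overlapped among themselves and lay above all other WT libraries. By contrast e2f5 was high from the start, with 492 and 508 CPM at stage 3, 386 and 382 CPM at stage 6 and 388 and 400.3 CPM at stage 9. It held 84.1 and 90.7 CPM at stage 10 and 47.1 and 44.9 CPM at stage 13. The fall at stage 10 was 4.52-fold (log2 change -2.18, SE 0.056, adjusted p = 1.1e-31), and a further fall at stage 13 was called (log2 change -0.92, SE 0.061, adjusted p = 1.6e-17). The slow decline of e2f5 before gastrulation hangs on the scaling, since stage 9 against 3 gave -0.34 with TMM factors and 0.22 with total counts alone, a scaling that moves the median of all genes by 0.56. e2f5 overlaps rbis in the RefSeq assembly, with the same uncertainty as for e2f3.

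The atypical repressors e2f7 and e2f8 were both higher at stage 10 than at stage 9. e2f7, low through cleavage, held 33.9 and 38.9 CPM at stage 3, 28.4 and 29.0 CPM at stage 7, 45.5 and 46.3 CPM at stage 8 and 114 and 99.5 CPM at stage 9. It reached 217 and 227 CPM at stage 10 and 331 and 331 CPM at stage 13. From stage 8 on, the 2 libraries of each stage lay above every library of the stage before. Each step was called: 0.68 (SE 0.097, adjusted p = 2.0e-07) at stage 8 against 7, 1.22 (SE 0.095, adjusted p = 5.5e-14) at 9 against 8, 1.05 (SE 0.090, adjusted p = 6.3e-14) at 10 against 9 and 0.58 (SE 0.088, adjusted p = 1.4e-07) at 13 against 10. e2f8, its closest relative, was present from the start at 137 and 123 CPM and stood at 146 and 148 CPM at stage 7 and 169 and 150.2 CPM at stage 9. It held 355 and 345 CPM at stage 10 and 411 and 418 CPM at stage 13. Its stage 10 libraries were 2.19-fold above those of stage 9 (log2 change 1.13, SE 0.084, adjusted p = 5.7e-15). The further step at stage 13 (log2 change 0.25, SE 0.082, adjusted p = 0.0074) turned to -0.039 with total counts alone. The e2f8 call was lost with total counts as the scaling, and over all alternatives its adjusted p ran from 9.9e-07 to 0.69.

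Per length tfdp1 was the more abundant DP RNA up to stage 10 and tfdp2 at stage 13. tfdp1, whose product is the main DP partner in most mammalian cells, held 188 and 205 CPM at stage 3, 151 and 163 CPM at stage 6, 102 and 111 CPM at stage 8 and 93.7 and 109 CPM at stage 13. At stage 9 it was lower than at stage 3 (log2 change -0.84, SE 0.071, adjusted p = 4.0e-14). The size of this fall hangs on the scaling, since total counts alone moved the median of all genes by 0.56 in that comparison. tfdp2 held 97.01 and 89.1 CPM at stage 3, 152 and 152 CPM at stage 7 and 159.8 and 165 CPM at stage 8. It held 115 and 117 CPM at stage 10 and 290.1 and 331 CPM at stage 13. The stage 13 libraries of tfdp2 stood above all its other WT libraries, 2.68-fold over stage 10 (log2 change 1.42, SE 0.064, adjusted p = 3.0e-23). Per length, tfdp1 made up 77.4% ± 2.13 (SD, n = 2) of the 2 DP RNAs at stage 3, 66.5% ± 1.23 at stage 6 and 51.5% ± 1.04 at stage 8. The share was higher again at stages 9 and 10, at 55.1% ± 2.02 and 63.2% ± 0.315, and 34.6% ± 0.239 at stage 13.

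Of the pocket proteins, rb1 RNA was plentiful throughout, and rbl1 RNA was rare up to stage 8 and rose from stage 9 on. rb1, the gene of the retinoblastoma protein, held 113 and 113 CPM at stage 3, 146 and 143 CPM at stage 7 and 194 and 220.0 CPM at stage 9. It held 239 and 256 CPM at stage 10 and 136 and 137 CPM at stage 13, so that the highest levels came at stages 9 and 10. It was higher at stage 9 than at stage 3 (log2 change 0.88, SE 0.065, adjusted p = 5.9e-16) and lower at stage 13 than at stage 10 (log2 change -0.86, SE 0.066, adjusted p = 1.9e-15). In the RefSeq assembly rb1 overlaps lpar6, whose reads may be among its counts. rbl1, which encodes p107, held 5.20 and 4.90 CPM at stage 3, 3.78 and 3.52 CPM at stage 7 and 4.15 and 4.90 CPM at stage 8. It then held 20.5 and 20.05 CPM at stage 9, 151 and 165 CPM at stage 10 and 267 and 294 CPM at stage 13. The 3 steps were 2.17 (SE 0.13, adjusted p = 2.1e-17) at stage 9 against 8, 2.96 (SE 0.10, adjusted p = 3.2e-27) at 10 against 9 and 0.83 (SE 0.090, adjusted p = 5.4e-11) at 13 against 10. Per length, rbl1 was 5.29% ± 0.184 (SD, n = 2) of the 2 pocket RNAs at stage 3, 10.9% ± 1.006 at stage 9, 44.4% ± 0.368 at stage 10 and 72.0% ± 1.29 at stage 13. In whole embryos fewer cells of a type and less RNA per cell cannot be told apart, so these levels do not say which cells hold the RNAs.

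Read together per length, the 6 e2f RNAs summed to between 427 and 536 RPKM (stage means) over the 9 WT stages. Within the sum e2f1 made up 34.3% ± 0.174 at stage 3, 25.4% ± 0.387 at stage 6, 16.5% ± 0.948 at stage 9, 1.25% ± 0.358 at stage 10 and 2.22% ± 0.145 at stage 13 (SD, n = 2 each). e2f3 made up 18.3% ± 0.688 at stage 3, 39.2% ± 0.416 at stage 9 and 52.2% ± 1.69 at stage 10. The 2 activators together held 52.6% ± 0.515 at stage 3, 53.5% ± 1.33 at stage 10 and 44.4% ± 0.703 at stage 13. Their joint share had stage means between 52.1% and 56.1% at stages 3 to 10, and it was lower at stage 13. The part of e2f1 was smaller and that of e2f3 larger at stage 10 than at stage 3. The course of the joint share hangs on the division by gene length, which is 4234 bases for e2f1 and 2125 for e2f3. The e2f3 part may also hold reads of the gene that e2f3 overlaps. The repressors e2f4 and e2f5 together held 36.4% ± 0.195 at stage 3, 30.4% ± 0.154 at stage 9 and 8.94% ± 0.263 at stage 13. The atypical pair held 10.97% ± 0.710 at stage 3, 13.9% ± 1.21 at stage 9, 35.7% ± 0.930 at stage 10 and 46.7% ± 0.966 at stage 13. These are shares of RNA, not of protein.

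**Figure D2:**
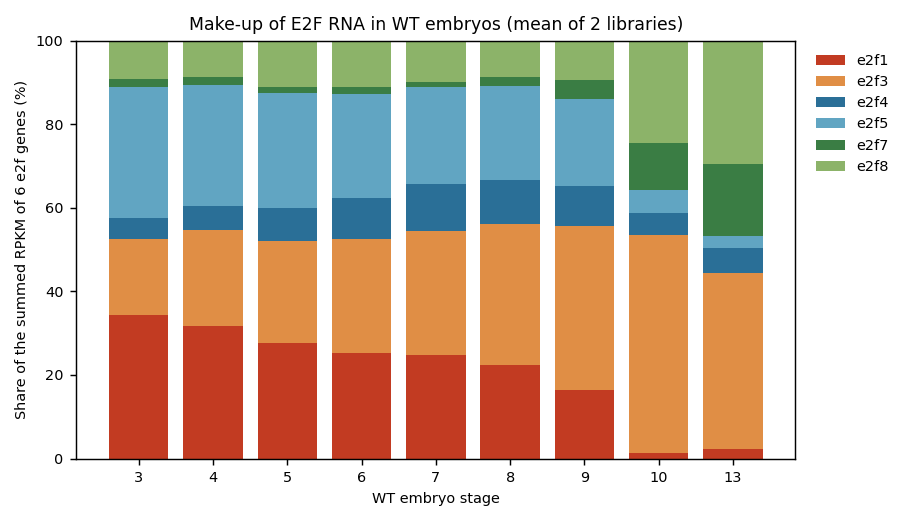
Share (%) of each of the 6 e2f genes in their summed RPKM, by WT embryo stage; each bar is the mean of 2 libraries and adds up to 100%. The e2f1 segment is 34.3% at stage 3, 16.5% at stage 9 and 1.25% at stage 10, while e2f7 and e2f8 together hold 10.97% at stage 3, 13.9% at stage 9 and 46.7% at stage 13.

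Genes that act on or with these proteins were followed as lists. The list of cyclin-CDK regulators holds cyclins, CDKs, CDK inhibitors and other genes such as skp2. Of its 18 genes tested, 8 were higher and 7 lower at WT stage 9 than at stage 3. Their median log2 change was 0.082, against 0.22 for all genes, of which 71.2% were called. The embryonic cyclin gene ccna1 averaged 652 ± 10.8 CPM at stage 9 and 4077 ± 64.9 CPM at stage 3 (log2 change -2.64, adjusted p = 7.9e-37), where ± is the SD of 2 libraries, here and for the genes below. cdk2, the kinase partner of cyclins A and E, averaged 55.3 ± 4.93 CPM at stage 9 and 253 ± 5.94 CPM at stage 3 (log2 change -2.19, adjusted p = 6.0e-27). At stage 10 ccne2, a cyclin E gene, averaged 641 ± 56.1 CPM at stage 10 and 182 ± 5.63 CPM at stage 9 (log2 change 1.82, adjusted p = 5.5e-27). Of the 9 MuvB and Myb partners, most of which join E2Fs and pocket proteins on cell-cycle promoters, 5 were higher and 2 lower at stage 9. mybl2, which encodes B-Myb, averaged 584 ± 9.16 CPM at stage 9 and 49.6 ± 2.07 CPM at stage 3 (log2 change 3.56, adjusted p = 1.7e-23). Of 69 classical E2F target genes tested, 26 were higher and 42 lower at stage 9 than at stage 3 (all genes 39.7% higher and 31.5% lower). Their median log2 change was -0.68. Total counts alone moved the median of all genes by 0.56 in that comparison. The counts by direction and the medians of these lists therefore hang on the scaling. The mitotic kinase gene melk averaged 22.5 ± 0.953 CPM at stage 9 and 345 ± 21.3 CPM at stage 3 (log2 change -3.94, adjusted p = 7.5e-35). pcna, the replication clamp, averaged 74.1 ± 0.629 CPM at stage 7 and 33.5 ± 0.0420 CPM at stage 6 (log2 change 1.14, adjusted p = 7.8e-10). At stage 13 against 10 the list had 17 higher and 41 lower and a median of -0.61, against 0.082 for all genes, of which 76.9% were called. Other genes of the family, e2f6 and rbl2, were both higher at stage 9. e2f6, a repressor that acts without pocket proteins, averaged 186 ± 5.65 CPM at stage 9 and 68.1 ± 5.72 CPM at stage 3 (log2 change 1.45, adjusted p = 1.5e-23). rbl2, which encodes p130, averaged 26.6 ± 0.115 CPM at stage 9 and 9.64 ± 0.835 CPM at stage 3 (log2 change 1.46, adjusted p = 6.0e-14).

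The named genes whose WT course ran closest to that of each member were taken by Pearson's r of log2 CPM over the 9 WT stage means. These values describe 9 points that share libraries and scaling. For e2f1 they were cdan1 (0.997), shroom2 (0.996) and znrf1 (0.996). For e2f3 they were fam168a (0.995), prpf6 (0.993) and wbp11 (0.990), and for e2f5 ralgapa1 (0.997), ccdc88a (0.997) and dcaf12 (0.996). The e2f7 course was nearest to skida1 (0.996), astl2c (0.996) and st6galnac2 (0.996). The e2f8 course was nearest to stx6 (0.994), map2k6 (0.991) and rbbp7 (0.990), of which rbbp7 encodes a histone-binding protein, the close relative of the MuvB subunit encoded by rbbp4. For tfdp1 they were srsf12 (0.997), ube2e1 (0.996) and tmed5 (0.995), and for rbl1 cnn2 (0.997), rab34 (0.996) and foxj1 (0.996). The lowest values were those of rb1, with mapk8ip1 (0.972), ldlr (0.972) and stip1 (0.971). e2f4 and tfdp2 lay between, with nadk (0.984) and ltn1 (0.994) as their nearest genes.

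E2F1 MO embryos were compared with WT at each of their stages. Through stages 3 to 6 few members were called. At stage 3, 1 of the 10 genes was called (all genes 7.55%), at stage 4 none (all genes 3.13%), at stage 5 again 1 (all genes 3.24%) and at stage 6 none (all genes 1.95%). At stage 4, 3 had an unadjusted p under 0.05 and DESeq2 called 0, and at stage 6, 1 had an unadjusted p under 0.05 and DESeq2 called 0. In a fit of only the libraries concerned tfdp1, tfdp2 and rb1 were called at stage 4, and at stage 3 e2f5 was called with DESeq2. The calls at stages 3 and 5 were both e2f8, in opposite directions. At stage 3 e2f8 held 168 and 162 CPM in E2F1 MO, against 137 and 123 CPM in WT (log2 change 0.35, SE 0.085, adjusted p = 0.0073). The e2f8 call was lost without WT stage 3 replicate 2 (adjusted p = 0.15) and without E2F1 MO stage 3 replicate 1 (adjusted p = 0.13), and over all alternatives its adjusted p ran from 1.8e-04 to 0.15. At stage 5 it held 118 and 130.5 CPM in E2F1 MO, against 141 and 168 CPM in WT (log2 change -0.31, SE 0.084, adjusted p = 0.027). The e2f8 call was lost without WT stage 5 replicate 2 (log2 change -0.18, adjusted p = 0.56) and without E2F1 MO stage 5 replicate 1 (adjusted p = 0.33), and over all alternatives its adjusted p ran from 0.0016 to 0.56. The WT libraries of stage 5 differed from each other by more than the gap to the nearest E2F1 MO library. e2f1 itself, whose RNA a morpholino need not remove, held 451 and 447 CPM in E2F1 MO at stage 6, against 475 and 467 CPM in WT (log2 change -0.070, 95% interval -0.29 to 0.15, adjusted p = 0.92). For e2f3 at that stage the libraries held 267 and 256 CPM in E2F1 MO, against 249 and 257 CPM in WT (log2 change 0.046, 95% interval -0.085 to 0.18, adjusted p = 0.90). rbl1, the least abundant member, held 2.74 and 2.74 CPM in E2F1 MO, against 3.50 and 3.69 CPM in WT (log2 change -0.39, 95% interval -0.75 to -0.034, adjusted p = 0.36).

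At stage 7, 8 of the 10 genes were called, 5 lower and 3 higher in E2F1 MO, where 47.2% of all genes were called, 22% lower and 25.3% higher. At stage 8, 6 were called, 5 lower and 1 higher (all genes 49.8%, 23.7% lower and 26.2% higher). e2f1, e2f3, e2f5 and rbl1 were lower and e2f4 was higher at both stages. The e2f1 calls were not kept under every alternative, as given below. The zygotic marker sums given above differed in the same pairs of groups and their part was not tested.

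Both activators were lower. At stage 7 e2f3 held 222 and 224 CPM in E2F1 MO, against 302 and 296 CPM in WT (log2 change -0.42, SE 0.064, adjusted p = 4.5e-07). At stage 8 it held 279 and 291 CPM in E2F1 MO, against 372 and 368.9 CPM in WT (log2 change -0.38, SE 0.064, adjusted p = 3.8e-06). The libraries of the groups did not overlap at either stage. e2f1 RNA held 404 and 413 CPM in E2F1 MO at stage 7, against 491 and 495 CPM in WT (log2 change -0.27, SE 0.10, adjusted p = 0.034), and 404 and 411 CPM in E2F1 MO at stage 8, against 478 and 499 CPM in WT (log2 change -0.26, SE 0.10, adjusted p = 0.041). The stage 7 call was lost without each of the 4 libraries in turn (adjusted p = 0.086 to 0.13), and over all alternatives its adjusted p ran from 6.7e-08 to 0.13. The stage 8 call was lost without each of the 4 libraries in turn (adjusted p = 0.076 to 0.17), with total counts as the scaling and in a fit of only the libraries concerned, and over all alternatives its adjusted p ran from 2.5e-06 to 0.17.

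Of the repressors, e2f5 was lower and e2f4 higher. At stage 7 e2f5 held 287 and 282 CPM in E2F1 MO, against 393 and 381 CPM in WT (log2 change -0.44, SE 0.051, adjusted p = 8.5e-10), and at stage 8 312 and 311 CPM in E2F1 MO, against 411 and 417 CPM in WT (log2 change -0.41, SE 0.051, adjusted p = 6.7e-09). e2f4 held 116 and 119 CPM in E2F1 MO at stage 7, against 97.9 and 96.6 CPM in WT (log2 change 0.27, SE 0.066, adjusted p = 6.1e-04), and 123 and 124 CPM in E2F1 MO at stage 8, against 103 and 94.8 CPM in WT (log2 change 0.31, SE 0.067, adjusted p = 1.2e-04). For both genes all 4 E2F1 MO libraries lay on one side of the 4 WT libraries. e2f7, which rises in WT at stage 8, held 28.1 and 26.7 CPM in E2F1 MO at that stage, against 45.5 and 46.3 CPM in WT (log2 change -0.74, SE 0.098, adjusted p = 2.4e-08). At stage 7 it held 25.4 and 24.2 CPM in E2F1 MO, against 28.4 and 29.0 CPM in WT (log2 change -0.21, 95% interval -0.41 to -0.014, adjusted p = 0.073). The e2f7 change was called in a fit of only the libraries concerned (adjusted p = 0.024). e2f8 was higher at stage 7, with 176 and 172 CPM in E2F1 MO, against 146 and 148 CPM in WT (log2 change 0.24, SE 0.082, adjusted p = 0.013). The e2f8 call was lost without WT stage 7 replicate 1 (adjusted p = 0.065) and without E2F1 MO stage 7 replicate 1 (adjusted p = 0.072), and over all alternatives its adjusted p ran from 6.0e-04 to 0.072.

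Among the partners, tfdp1 was lower at stage 7, with 97.9 and 98.2 CPM in E2F1 MO, against 126 and 131 CPM in WT (log2 change -0.39, SE 0.070, adjusted p = 7.8e-06). At stage 8 the tfdp1 libraries overlapped, with 101 and 106 CPM in E2F1 MO, against 102 and 111 CPM in WT (log2 change -0.039, 95% interval -0.18 to 0.10, adjusted p = 0.70). edgeR called tfdp2 at none of the 6 stages. Its stage 4 change was called in a fit of only the libraries concerned (adjusted p = 0.018). At stage 7 the tfdp2 95% interval ran from -0.094 to 0.15. The pocket protein genes moved in opposite directions at stage 7. rb1 held 185 and 184 CPM in E2F1 MO, against 146 and 143 CPM in WT (log2 change 0.36, SE 0.062, adjusted p = 6.6e-06), while rbl1 held 2.18 and 2.40 CPM in E2F1 MO, against 3.78 and 3.52 CPM in WT (log2 change -0.67, SE 0.15, adjusted p = 2.8e-04). At stage 8 rbl1 was again lower, at 2.101 and 2.20 CPM in E2F1 MO, against 4.15 and 4.90 CPM in WT (log2 change -1.06, SE 0.17, adjusted p = 7.6e-07), and rb1 held 175 and 176 CPM in E2F1 MO, against 165 and 173 CPM in WT (log2 change 0.058, 95% interval -0.070 to 0.19, adjusted p = 0.48). The rbl1 level in these groups is that of a rare RNA, of which these 8 libraries held between 67 and 129 counts.

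**Figure D3:**
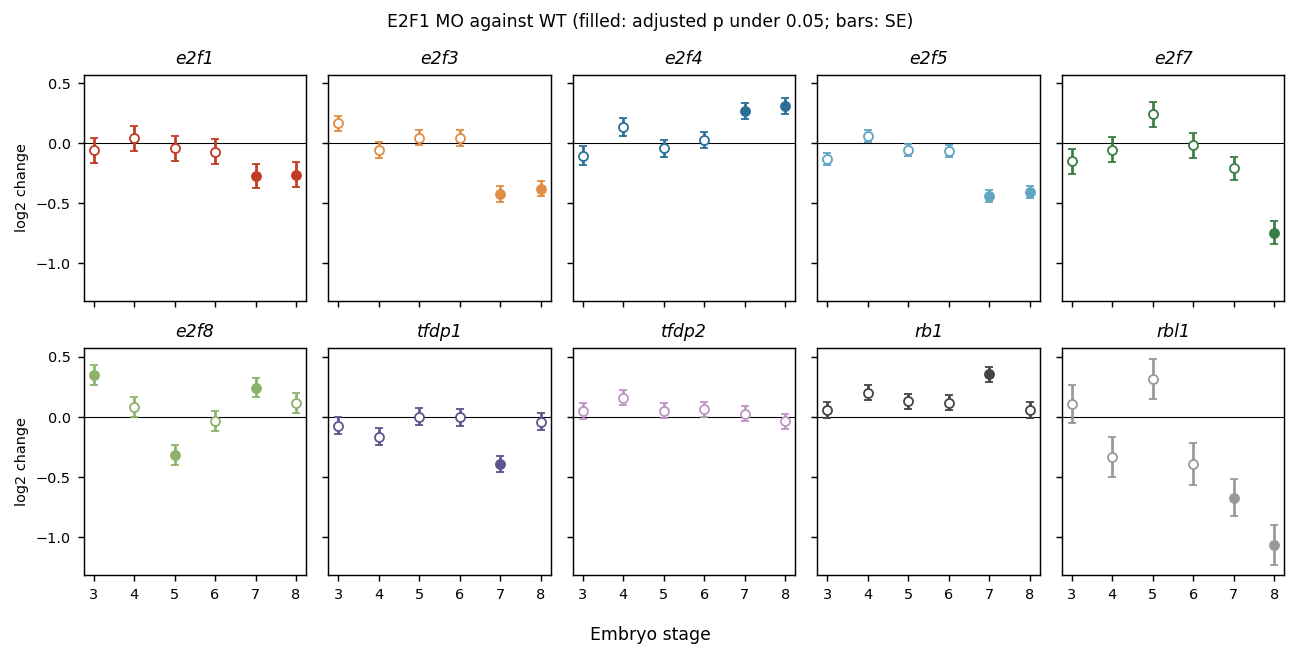
Log2 change of each member in E2F1 MO against WT by embryo stage; points are the edgeR estimates from 2 libraries a group, bars the standard error, and filled points have an adjusted p under 0.05. At stages 3 to 6 only e2f8 has filled points, at stages 3 and 5, and at stages 7 and 8 there are 8 and 6 filled points, with rbl1 at -1.06 and e2f7 at -0.74 at stage 8.

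Whether the effect of the morpholino differed between adjacent stages was tested as a difference of log2 changes. No member was called at stage 4 minus 3 (all genes 0.853%), 5 minus 4 (0.112%) or 6 minus 5, where edgeR called no gene at all. Unadjusted p-values under 0.05 were found for 4, 2 and 2 of the 10, and DESeq2 called 0 in each. The e2f8 difference at stage 5 minus 4 was called without the filter on low counts (adjusted p = 0.022) and in a fit of only the libraries concerned (adjusted p = 0.044). At stage 7 minus 6, 5 of the 10 were called (all genes 29.5%). The largest was e2f3, at -0.47 (SE 0.091, adjusted p = 8.1e-05). At stage 8 minus 7, 3 were called (all genes 39%), with e2f7 at -0.53 (SE 0.14, adjusted p = 0.0017).

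Some genes that act with the family were already changed in cleavage. rbbp7, which encodes a histone-binding subunit of several chromatin complexes and is listed with the MuvB genes as the close relative of rbbp4, was lower in E2F1 MO at every stage tested. At stage 3 it averaged 49.96 ± 1.22 CPM in E2F1 MO, against 101 ± 1.63 CPM in WT (log2 change -1.01, adjusted p = 2.1e-11), and at stage 6 63.4 ± 1.198 CPM in E2F1 MO, against 137 ± 4.68 CPM in WT (log2 change -1.11, adjusted p = 6.2e-13). The log2 changes at stages 4, 5, 7 and 8 were -1.01, -1.39, -1.24 and -0.81, each with an adjusted p of at most 8.4e-11. rpa1, a subunit of the single-strand DNA binding protein and a classical E2F target, went the other way, with 24.3 ± 3.34 CPM in E2F1 MO, against 12.4 ± 1.10 CPM in WT (log2 change 0.98, adjusted p = 7.6e-10) at stage 3 and 61.02 ± 2.29 CPM in E2F1 MO, against 31.2 ± 0.878 CPM in WT (log2 change 0.97, adjusted p = 1.4e-12) at stage 6. skp2, whose product marks CDK inhibitors for breakdown, was also higher, with 48.2 ± 4.20 CPM in E2F1 MO, against 35.3 ± 1.31 CPM in WT (log2 change 0.45, adjusted p = 2.7e-04) at stage 3. At stage 3, 24.6% of the classical E2F targets were called, against 7.55% of all genes. Of the 69 classical E2F targets tested, 4 higher and 13 lower were called at stage 3, 4 higher and 4 lower at stage 4 (all genes 3.13%), 3 higher and 3 lower at stage 5 (all genes 3.24%) and 2 higher and 0 lower at stage 6 (all genes 1.95%). At stage 7 the counts were 20 higher and 21 lower, or 59.4% of the list (all genes 47.2%, 25.3% higher and 22% lower). At stage 8 they were 28 higher and 14 lower, or 60.9% (all genes 49.8%, 26.2% higher and 23.7% lower). The list medians were -0.048 and 0.10 at these stages, where the median of all genes was 0. Of the 18 cyclin-CDK regulators, 6 higher and 4 lower were called at stage 7 and 7 higher and 2 lower at stage 8, which is 55.6% and 50% of the list (all genes 47.2% and 49.8%). cdkn2d, a CDK4 and CDK6 inhibitor gene, averaged 33.1 ± 1.91 CPM in E2F1 MO, against 16.03 ± 0.510 CPM in WT (log2 change 1.05, adjusted p = 2.7e-10) at stage 7. mybl1, which encodes A-Myb, averaged 2.94 ± 0.405 CPM in E2F1 MO, against 9.98 ± 0.667 CPM in WT (log2 change -1.77, adjusted p = 2.7e-11) at that stage. Of the other family genes, e2f6 averaged 144 ± 0.955 CPM in E2F1 MO, against 197 ± 4.68 CPM in WT (log2 change -0.45, adjusted p = 4.1e-08) at stage 8.

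E2F1 rescue embryos, which had E2F1 mRNA beside the E2F1 morpholino, were compared with E2F1 MO and with WT. e2f1 counts in these embryos come from the injected mRNA and check the injection. The libraries held 23117 and 24662 CPM at stage 6, 32269 and 32728 CPM at stage 7 and 35358 and 24772 CPM at stage 8, or 2.25% to 3.91% of all counts, against at most 0.0561% in any other library. These levels were far above those of WT, which averaged 471 CPM at stage 6, 493 CPM at stage 7 and 488 CPM at stage 8. A change against E2F1 MO is therefore one with e2f1 RNA in excess, not at its WT level. No group with a control mRNA was analysed here, so the act of adding mRNA and the E2F1 it encodes cannot be told apart. The other 9 members were compared. At stage 6 none was called against E2F1 MO, where edgeR called 0.131% of all genes. There 0 had an unadjusted p under 0.05 and DESeq2 called 0 of the 9. The largest of the 9 log2 changes was 0.17 in size. Against WT at stage 6 none was called either (all genes 3.01%), and 1 had an unadjusted p under 0.05 and DESeq2 called 0. For e2f3 the stage 6 libraries held 261 and 243 CPM in E2F1 rescue, against 267 and 256 CPM in E2F1 MO (log2 change -0.055, 95% interval -0.19 to 0.076, adjusted p = 0.89).

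At stage 7, 6 of the 9 were called against E2F1 MO, 4 higher and 2 lower in E2F1 rescue (all genes 43.4%, 20.1% higher and 23.3% lower). e2f3 held 294 and 297 CPM in E2F1 rescue, against 222 and 224 CPM in E2F1 MO (log2 change 0.40, SE 0.064, adjusted p = 1.5e-06). The WT libraries of that stage held 302 and 296 CPM, and E2F1 rescue against WT gave a log2 change -0.019, 95% interval -0.15 to 0.11, adjusted p = 0.90. tfdp1 held 135 and 132 CPM in E2F1 rescue, against 97.9 and 98.2 CPM in E2F1 MO (log2 change 0.45, SE 0.070, adjusted p = 1.1e-06), next to 126 and 131 CPM in WT (log2 change 0.054, 95% interval -0.085 to 0.19, adjusted p = 0.61). rb1 held 136 and 137 CPM in E2F1 rescue, against 185 and 184 CPM in E2F1 MO (log2 change -0.44, SE 0.063, adjusted p = 2.1e-07), next to 146 and 143 CPM in WT (log2 change -0.081, 95% interval -0.21 to 0.046, adjusted p = 0.35). In these 3 genes the E2F1 rescue libraries lay away from E2F1 MO, on the WT side. The zygotic marker sum at stage 7 was 0.654 to 0.733 CPM in E2F1 rescue, 36.8 to 37.4 CPM in E2F1 MO and 0.937 to 1.02 CPM in WT. It thus also lay nearer to WT in E2F1 rescue than in E2F1 MO, and its part in these results was not tested. e2f7 held 36.4 and 35.1 CPM in E2F1 rescue, against 25.4 and 24.2 CPM in E2F1 MO (log2 change 0.53, SE 0.097, adjusted p = 2.0e-05). Those libraries also stood above the 28.4 and 29.0 CPM of WT (log2 change 0.32, SE 0.096, adjusted p = 0.0086). The call against WT was lost without WT stage 7 replicate 1 (adjusted p = 0.063) and without E2F1 rescue stage 7 replicate 1 (adjusted p = 0.071), and over all alternatives its adjusted p ran from 0.0040 to 0.071. rbl1 was higher in E2F1 rescue, at 3.01 and 3.09 CPM, than in E2F1 MO, at 2.18 and 2.40 CPM (log2 change 0.41, SE 0.16, adjusted p = 0.037). The rbl1 call was lost without each of the 4 libraries in turn (adjusted p = 0.059 to 0.20), with total counts as the scaling, without the filter on low counts, in a fit of only the libraries concerned and with DESeq2, and over all alternatives its adjusted p ran from 0.033 to 0.20. tfdp2 was lower in E2F1 rescue, at 139 and 137 CPM, than in E2F1 MO, at 156 and 154 CPM (log2 change -0.17, SE 0.061, adjusted p = 0.019). The tfdp2 call was lost without each of the 4 libraries in turn (adjusted p = 0.053 to 0.10) and without the filter on low counts, and over all alternatives its adjusted p ran from 0.0011 to 0.10.

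edgeR did not call e2f4, e2f5 or e2f8 between E2F1 rescue and E2F1 MO at stage 7. e2f5 held 309 and 304 CPM in E2F1 rescue, against 287 and 282 CPM in E2F1 MO (log2 change 0.11, 95% interval 0.0047 to 0.21, adjusted p = 0.085). The e2f5 change was called in a fit of only the libraries concerned (adjusted p = 0.013) and with DESeq2 (adjusted p = 0.035). Against the 393 and 381 CPM of WT it was lower (log2 change -0.34, SE 0.051, adjusted p = 9.1e-07). e2f8 held 197 and 191 CPM in E2F1 rescue, against 176 and 172 CPM in E2F1 MO (log2 change 0.15, 95% interval -0.012 to 0.32, adjusted p = 0.13). The e2f8 change was called in a fit of only the libraries concerned (adjusted p = 0.0043). Against the 146 and 148 CPM of WT it was higher (log2 change 0.40, SE 0.082, adjusted p = 1.8e-04). e2f4 held 109.9 and 111 CPM in E2F1 rescue, against 116 and 119 CPM in E2F1 MO (log2 change -0.086, 95% interval -0.22 to 0.047, adjusted p = 0.31). Over WT it was higher by 0.19 (SE 0.066, adjusted p = 0.026). The e2f4 call was lost without each of the 4 libraries in turn (adjusted p = 0.081 to 0.12), with total counts as the scaling and without the filter on low counts, and over all alternatives its adjusted p ran from 0.0053 to 0.12. In all, 4 of the 9 were called between E2F1 rescue and WT at stage 7 (all genes 33.3%). The tfdp2 change against WT, not called by edgeR in the full fit, was called with total counts as the scaling (adjusted p = 0.012), in a fit of only the libraries concerned (adjusted p = 0.012) and with DESeq2 (adjusted p = 0.030). The comparisons of E2F1 rescue and of E2F1 MO with WT share the WT libraries, and those of E2F1 rescue with E2F1 MO and of E2F1 MO with WT share the E2F1 MO libraries.

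At stage 8, 3 of the 9 were called between E2F1 rescue and E2F1 MO (all genes 39.9%), and 8 of the 9 between E2F1 rescue and WT (all genes 52.2%). By a mean chi-square per gene against counting error, the 2 libraries of E2F1 rescue at stage 8 differed most, at 32.9. The next values were 14.3 in WT stage 10 and 13.6 in double MO stage 7. The e2f8 levels of these E2F1 rescue libraries were 142 and 178 CPM. All groups share 1 estimate of spread, so p-values that involve E2F1 rescue stage 8 may be too small. The same holds for those given above and below that involve WT stage 10 or double MO stage 7. tfdp1 held 145 and 123 CPM in E2F1 rescue, against 101 and 106 CPM in E2F1 MO (log2 change 0.37, SE 0.070, adjusted p = 3.2e-05), and it stood above the 102 and 111 CPM of WT as well (log2 change 0.34, SE 0.071, adjusted p = 1.1e-04). The log2 change over WT was 0.21 without E2F1 rescue stage 8 replicate 1. rb1 held 123 and 141 CPM in E2F1 rescue, against 175 and 176 CPM in E2F1 MO (log2 change -0.41, SE 0.063, adjusted p = 1.2e-06), and lay below the 165 and 173 CPM of WT (log2 change -0.35, SE 0.064, adjusted p = 1.0e-05). tfdp2 held 127 and 142 CPM in E2F1 rescue, against 158 and 159 CPM in E2F1 MO (log2 change -0.24, SE 0.061, adjusted p = 0.0014). The tfdp2 call was lost without E2F1 rescue stage 8 replicate 1 (adjusted p = 0.084), and over all alternatives its adjusted p ran from 5.4e-06 to 0.084. e2f7 and rbl1, the members farthest below WT in E2F1 MO at stage 8, were again below WT. e2f7 held 27.7 and 32.9 CPM in E2F1 rescue, against 28.1 and 26.7 CPM in E2F1 MO (log2 change 0.15, 95% interval -0.054 to 0.35, adjusted p = 0.26) and 45.5 and 46.3 CPM in WT (log2 change -0.60, SE 0.10, adjusted p = 2.3e-06). rbl1 held 2.02 and 1.91 CPM in E2F1 rescue, against 2.101 and 2.20 CPM in E2F1 MO (log2 change -0.13, 95% interval -0.51 to 0.25, adjusted p = 0.64) and 4.15 and 4.90 CPM in WT (log2 change -1.20, SE 0.18, adjusted p = 3.8e-07). The zygotic marker sum at stage 8 was 4.35 to 4.71 CPM in E2F1 rescue, 40.2 to 40.6 CPM in E2F1 MO and 52.5 to 52.6 CPM in WT, and its part in these results was not tested. e2f3, e2f4 and e2f5 differed from WT at stage 8 by log2 changes of -0.25, 0.30 and -0.37, each with an adjusted p of at most 0.0011.

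**Figure D4:**
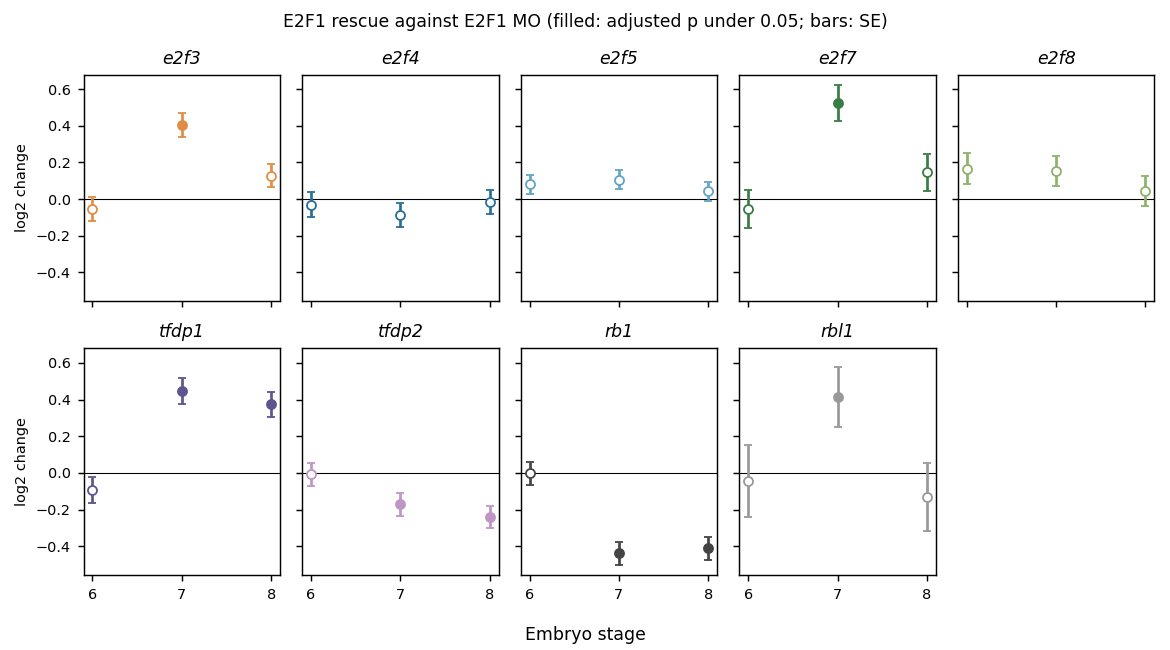
Log2 change of the 9 members other than e2f1 in E2F1 rescue against E2F1 MO at stages 6 to 8; points are edgeR estimates from 2 libraries a group, bars the standard error, filled points have an adjusted p under 0.05. All 9 points are open at stage 6, 6 are filled at stage 7 and 3 at stage 8, with tfdp1 above 0 and rb1 and tfdp2 below 0 at both later stages.

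Among the partner lists, rbbp7 was below WT in E2F1 rescue too. It averaged 47.1 ± 7.13 CPM in E2F1 rescue, against 137 ± 4.68 CPM in WT (log2 change -1.54, adjusted p = 2.5e-17) at stage 6, 46.2 ± 0.745 CPM in E2F1 rescue, against 128 ± 2.72 CPM in WT (log2 change -1.47, adjusted p = 6.8e-18) at stage 7 and 56.8 ± 8.10 CPM in E2F1 rescue, against 115 ± 3.09 CPM in WT (log2 change -1.01, adjusted p = 3.1e-13) at stage 8. rpa1 was likewise above WT at stage 6, with 55.9 ± 2.23 CPM in E2F1 rescue, against 31.2 ± 0.878 CPM in WT (log2 change 0.84, adjusted p = 1.1e-10). Against E2F1 MO rbbp7 was called lower in E2F1 rescue at stages 6 and 7, farther from WT. The stage 6 call was lost in a fit of only the libraries concerned (log2 change -0.44) and without E2F1 rescue stage 6 replicate 2 (log2 change -0.28), among others. The stage 7 call was lost without each library of either group in turn (log2 changes -0.25 to -0.22). Other genes differed from E2F1 MO at stage 7. cdkn2d averaged 14.8 ± 0.548 CPM in E2F1 rescue, against 33.1 ± 1.91 CPM in E2F1 MO (log2 change -1.16, adjusted p = 4.8e-11), mybl1 10.8 ± 0.388 CPM in E2F1 rescue, against 2.94 ± 0.405 CPM in E2F1 MO (log2 change 1.88, adjusted p = 9.9e-12) and melk 32.9 ± 0.182 CPM in E2F1 rescue, against 11.7 ± 0.808 CPM in E2F1 MO (log2 change 1.495, adjusted p = 1.3e-18). ccne2 averaged 67.5 ± 0.247 CPM in E2F1 rescue, against 43.9 ± 0.387 CPM in E2F1 MO (log2 change 0.62, adjusted p = 2.4e-10) at stage 7 and 58.9 ± 1.203 CPM in E2F1 rescue, against 37.0 ± 0.688 CPM in E2F1 MO (log2 change 0.67, adjusted p = 1.2e-10) at stage 8. Of the 69 classical E2F targets, 0 were higher and 1 lower against E2F1 MO at stage 6 (all genes 0.131%). The counts were 21 higher and 22 lower at stage 7, or 62.3% of the list (all genes 43.4%), and 22 higher and 14 lower at stage 8, or 52.2% (all genes 39.9%). The medians were 0.079 and 0.10 at the later stages, where the median of all genes was 0.

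Otx1 is a maternal homeodomain factor, and its morpholino was used alone and together with that against E2F1. In OTX1 MO against WT, 6 of the 10 genes were called at stage 7 (all genes 49.2%) and 8 at stage 8 (all genes 54.6%). In double MO against WT, 7 were called at stage 7 (all genes 50.3%) and 9 at stage 8 (all genes 55.2%). These comparisons share their WT libraries with each other and with those of E2F1 MO. The zygotic marker sums differed between these groups and WT at both stages, and their part was not tested. The 2 groups with the OTX1 morpholino had lower e2f5, e2f7, tfdp1 and rbl1 and higher e2f8 than WT at both stages.

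At stage 7 e2f8 held 225 and 241 CPM in double MO and 254 and 241 CPM in OTX1 MO, against 146 and 148 CPM in WT. That is 0.67 (SE 0.082, adjusted p = 9.7e-09) for double MO and 0.75 (SE 0.082, adjusted p = 6.8e-10) for OTX1 MO on the log2 scale. At stage 8 it held 245 and 236 CPM in double MO and 249 and 237 CPM in OTX1 MO, against 139 and 147 CPM in WT, with 0.75 (SE 0.083, adjusted p = 5.8e-10) and 0.77 (SE 0.083, adjusted p = 4.1e-10). All 8 libraries with the OTX1 morpholino lay above all 4 WT libraries. e2f7, the other atypical repressor, was lower. At stage 8 it held 16.4 and 21.2 CPM in double MO and 17.2 and 19.4 CPM in OTX1 MO, against 45.5 and 46.3 CPM in WT, with -1.30 (SE 0.10, adjusted p = 1.2e-14) and -1.33 (SE 0.10, adjusted p = 6.0e-15). At stage 7 its log2 changes were -0.55 (SE 0.10, adjusted p = 1.2e-05) in double MO and -0.64 (SE 0.10, adjusted p = 7.8e-07) in OTX1 MO.

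tfdp1 held 72.2 and 72.8 CPM in double MO and 74.3 and 72.6 CPM in OTX1 MO at stage 7, against 126 and 131 CPM in WT, with log2 changes of -0.83 (SE 0.071, adjusted p = 4.0e-13) and -0.81 (SE 0.070, adjusted p = 6.4e-13). At stage 8 it held 66.4 and 69.6 CPM in double MO and 73.7 and 69.1 CPM in OTX1 MO, against 102 and 111 CPM in WT, with -0.65 (SE 0.072, adjusted p = 2.8e-10) and -0.58 (SE 0.072, adjusted p = 4.5e-09). The 2 groups held tfdp1 below every WT library of those stages. rbl1 held 1.74 and 1.61 CPM in double MO and 1.46 and 1.82 CPM in OTX1 MO at stage 8, against 4.15 and 4.90 CPM in WT, with -1.42 (SE 0.17, adjusted p = 1.7e-09) and -1.47 (SE 0.17, adjusted p = 7.2e-10). At stage 7 its log2 changes were -1.16 (SE 0.17, adjusted p = 1.2e-07) in double MO and -1.33 (SE 0.17, adjusted p = 8.6e-09) in OTX1 MO. e2f5 held 245 and 239 CPM in double MO and 258 and 268 CPM in OTX1 MO at stage 8, against 411 and 417 CPM in WT, with -0.78 (SE 0.051, adjusted p = 9.3e-17) and -0.66 (SE 0.051, adjusted p = 1.6e-14). At stage 7 its log2 changes were -0.47 (SE 0.051, adjusted p = 2.3e-10) in double MO and -0.39 (SE 0.050, adjusted p = 1.8e-08) in OTX1 MO.

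The activators were lower at stage 8. e2f3 held 271 and 273 CPM in double MO and 289.6 and 261 CPM in OTX1 MO, against 372 and 368.9 CPM in WT, with log2 changes of -0.44 (SE 0.064, adjusted p = 1.2e-07) and -0.43 (SE 0.064, adjusted p = 2.8e-07). At stage 7 edgeR did not call e2f3 in double MO (log2 change -0.15, 95% interval -0.28 to -0.018, adjusted p = 0.053) or in OTX1 MO (log2 change -0.14, 95% interval -0.27 to -0.013, adjusted p = 0.063). The double MO change was called with RLE factors (adjusted p = 0.039), with e2f1 left out of library sizes (adjusted p = 0.037), in a fit of only the libraries concerned (adjusted p = 0.0067) and with DESeq2 (adjusted p = 0.030). The OTX1 MO change was called with RLE factors (adjusted p = 0.042), with total counts as the scaling (adjusted p = 0.037), with e2f1 left out of library sizes (adjusted p = 0.040), in a fit of only the libraries concerned (adjusted p = 0.0084), with DESeq2 (adjusted p = 0.031) and without OTX1 MO stage 7 replicate 1 (adjusted p = 0.044). e2f1 held 359 and 351 CPM in double MO at stage 8, against 478 and 499 CPM in WT (log2 change -0.46, SE 0.10, adjusted p = 5.7e-04). It held 400.3 and 349 CPM in double MO at stage 7, against 491 and 495 CPM in WT (log2 change -0.40, SE 0.10, adjusted p = 0.0025). The e2f1 call was lost without double MO stage 7 replicate 2 (adjusted p = 0.062), and over all alternatives its adjusted p ran from 1.9e-15 to 0.062. In OTX1 MO the e2f1 change was -0.34 (SE 0.10, adjusted p = 0.0082) at stage 8. The e2f1 call was lost without WT stage 8 replicate 2 (adjusted p = 0.055) and in a fit of only the libraries concerned, and over all alternatives its adjusted p ran from 6.0e-11 to 0.091. At stage 7 the e2f1 change in OTX1 MO, not called by edgeR in the full fit, was called without the filter on low counts (adjusted p = 3.6e-06), in a fit of only the libraries concerned (adjusted p = 0.0011) and with DESeq2 (adjusted p = 0.029). e2f4 was higher in double MO at stage 8, with 121 and 124 CPM, against 103 and 94.8 CPM in WT (log2 change 0.30, SE 0.067, adjusted p = 1.5e-04). Its changes in double MO at stage 7 (log2 change 0.23, SE 0.066, adjusted p = 0.0029) and in OTX1 MO at stage 8 (log2 change 0.19, SE 0.067, adjusted p = 0.016) rested on single libraries. The first was lost without double MO stage 7 replicate 2 (log2 change 0.15, adjusted p = 0.12), and over all alternatives its adjusted p ran from 3.6e-04 to 0.12. The second was lost without WT stage 8 replicate 2 (adjusted p = 0.21) and without OTX1 MO stage 8 replicate 2 (adjusted p = 0.085), and over all alternatives its adjusted p ran from 0.012 to 0.21. rb1 was lower in double MO at stage 8 (log2 change -0.22, SE 0.063, adjusted p = 0.0028) and higher in OTX1 MO at stage 7 (log2 change 0.16, SE 0.063, adjusted p = 0.030). The OTX1 MO call was lost without WT stage 7 replicate 1, WT stage 7 replicate 2 or OTX1 MO stage 7 replicate 1 (adjusted p = 0.072 to 0.20) and without the filter on low counts, and over all alternatives its adjusted p ran from 0.014 to 0.20. edgeR did not call tfdp2 in either group at either stage. In double MO at stage 8 it gave a log2 change -0.13, 95% interval -0.25 to -0.006, adjusted p = 0.070. That change was called with RLE factors (adjusted p = 0.019), with e2f1 left out of library sizes (adjusted p = 0.043), with DESeq2 (adjusted p = 0.0077) and without double MO stage 8 replicate 1 (adjusted p = 0.035).

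**Figure D5:**
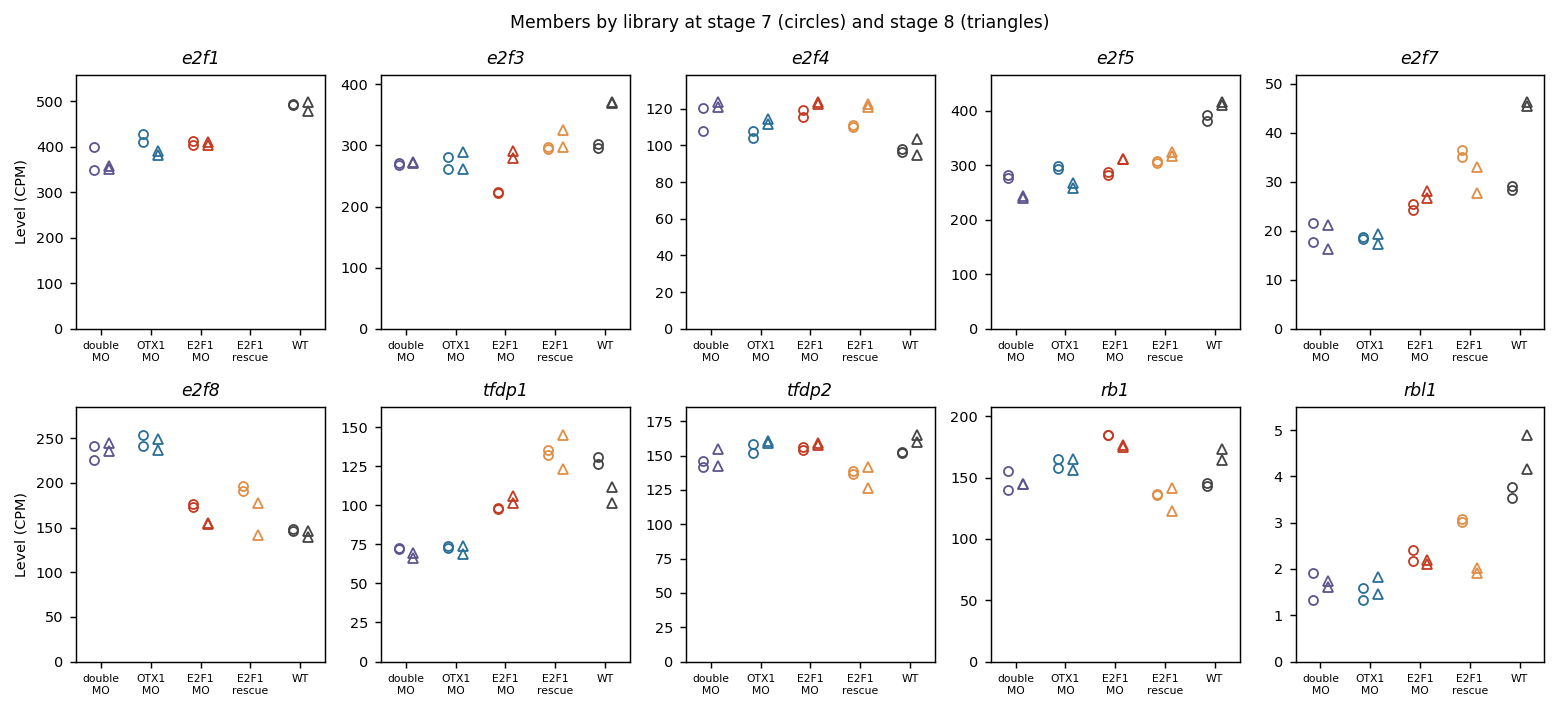
Level (CPM) of each member in every library of stage 7 (circles) and stage 8 (triangles), by group, with double MO, OTX1 MO, E2F1 MO and E2F1 rescue left of WT; e2f1 in E2F1 rescue, which is injected mRNA, is not drawn. e2f8 stands between 225 and 254 CPM in the groups with the OTX1 morpholino and between 139 and 148 CPM in WT.

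With the E2F1 morpholino added to the OTX1 morpholino edgeR called no member. In double MO against OTX1 MO edgeR called 0 of the 10 at stage 7 (all genes 3.74%), where 1 had an unadjusted p under 0.05 and DESeq2 called 0, and 0 at stage 8 (all genes 2.68%), where 2 had an unadjusted p under 0.05 and DESeq2 called 0. At such shares of all genes, 10 genes can hold no call by their number alone. The stage 7 change of e2f1 was called without the filter on low counts (adjusted p = 0.027). The largest of the 10 log2 changes was 0.16 in size at stage 7 and 0.15 at stage 8. For e2f3 the interval ran from -0.13 to 0.12 at stage 7, and for e2f5 from -0.22 to -0.018 at stage 8. For the rare rbl1 it was wider, from -0.24 to 0.56 at stage 7. With the OTX1 morpholino added to the E2F1 morpholino 6 members were called at stage 7 (all genes 44.6%) and 5 at stage 8 (all genes 43.2%). e2f8 was higher in double MO, at 245 and 236 CPM, than in E2F1 MO, at 154 and 156 CPM, at stage 8 (log2 change 0.64, SE 0.082, adjusted p = 3.7e-08), and at stage 7 the change was 0.42 (SE 0.081, adjusted p = 4.8e-05). tfdp1 was lower in double MO at stage 7 (log2 change -0.43, SE 0.071, adjusted p = 2.3e-06) and at stage 8 (log2 change -0.61, SE 0.071, adjusted p = 1.9e-09), and so was rb1, at -0.32 (SE 0.063, adjusted p = 3.8e-05) and -0.28 (SE 0.062, adjusted p = 2.9e-04). e2f3 was higher in double MO than in E2F1 MO at stage 7 (log2 change 0.28, SE 0.064, adjusted p = 4.4e-04). e2f5 (log2 change -0.37, SE 0.051, adjusted p = 9.3e-08) and e2f7 (log2 change -0.55, SE 0.099, adjusted p = 1.2e-05) were lower at stage 8. At stage 7 e2f7 (log2 change -0.34, SE 0.10, adjusted p = 0.0058) and rbl1 (log2 change -0.49, SE 0.18, adjusted p = 0.025) were lower. The e2f7 call was lost without E2F1 MO stage 7 replicate 1 (adjusted p = 0.059) and without double MO stage 7 replicate 2 (log2 change -0.21, adjusted p = 0.18), and over all alternatives its adjusted p ran from 0.0015 to 0.18. The rbl1 call was lost without E2F1 MO stage 7 replicate 2 (adjusted p = 0.14), without double MO stage 7 replicate 2 (log2 change -0.26, adjusted p = 0.39), without the filter on low counts and in a fit of only the libraries concerned, and over all alternatives its adjusted p ran from 0.0070 to 0.39. The log2 change was -0.77 without double MO stage 7 replicate 1.

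Whether the 2 morpholinos added up was tested as an interaction, the change made by the OTX1 morpholino in embryos with the E2F1 morpholino minus that in embryos without it. A value above 0 means that double MO stood higher than the sum of the single changes on the log2 scale. At stage 7, 6 of the 10 were called, 4 above and 2 below 0 (all genes 34.3%, 15.9% above and 18.3% below), and at stage 8, 4 were, each above 0 (all genes 35.9%, 16.6% above and 19.4% below). At stage 8 rbl1 gave 1.116 (SE 0.24, adjusted p = 2.8e-04), e2f7 0.78 (SE 0.14, adjusted p = 2.2e-05), e2f3 0.36 (SE 0.090, adjusted p = 0.0014) and e2f5 0.29 (SE 0.072, adjusted p = 0.0013). These 4 genes were each lower than WT in both single-morpholino groups at that stage. In double MO they were lower by less than the sum of those changes. At stage 7 e2f3 gave 0.42 (SE 0.091, adjusted p = 2.7e-04), e2f5 0.36 (SE 0.071, adjusted p = 7.4e-05), tfdp1 0.37 (SE 0.10, adjusted p = 0.0027) and rb1 -0.48 (SE 0.089, adjusted p = 2.5e-05). Each such value rests on 8 libraries, and the zygotic marker sums differed among those 4 groups as given above. Only E2F1 MO of those groups has the other header style. The part of either was not tested.

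The partner lists in the OTX1 morpholino groups gave 16 higher and 28 lower of the 69 classical E2F targets in double MO against WT at stage 7, which is 63.8% of the list (all genes 50.3%), and 30 higher and 19 lower at stage 8, which is 71.0% (all genes 55.2%). In OTX1 MO against WT they gave 18 higher and 35 lower at stage 7, which is 76.8% (all genes 49.2%), and 26 higher and 19 lower at stage 8, which is 65.2% (all genes 54.6%). The OTX1 MO medians were -0.16 at stage 7 and 0.030 at stage 8, where the median of all genes was 0. mybl1 averaged 3.44 ± 0.166 CPM in double MO, against 15.9 ± 0.824 CPM in WT (log2 change -2.20, adjusted p = 1.7e-14) at stage 8, and in OTX1 MO 3.11 ± 0.0566 CPM, against 15.9 ± 0.824 CPM in WT (log2 change -2.35, adjusted p = 3.4e-15). ccne2 averaged 35.9 ± 1.84 CPM in double MO, against 60.1 ± 2.93 CPM in WT (log2 change -0.75, adjusted p = 1.8e-12) at stage 8. rbl2 averaged 15.9 ± 1.54 CPM in double MO, against 24.8 ± 1.67 CPM in WT (log2 change -0.65, adjusted p = 3.2e-06) and e2f6 149.8 ± 5.73 CPM in double MO, against 197 ± 4.68 CPM in WT (log2 change -0.39, adjusted p = 3.6e-07) at that stage. Of the 9 MuvB and Myb partners, rbbp7 separated the 2 groups, with 52.6 ± 4.56 CPM in double MO, against 93.6 ± 4.43 CPM in OTX1 MO (log2 change -0.83, adjusted p = 2.8e-09) at stage 7 and 55.7 ± 1.87 CPM in double MO, against 96.3 ± 7.09 CPM in OTX1 MO (log2 change -0.79, adjusted p = 5.1e-09) at stage 8. rbbp7 was the 1 gene of that list called in double MO against OTX1 MO at either stage (all genes 3.74% at stage 7 and 2.68% at stage 8). Its OTX1 MO averages also lay below the WT averages given above at both stages. The gap was wider at stage 7, for which no test is given here. The stage 8 change of OTX1 MO against WT was called. That call was lost without WT stage 8 replicate 2 (log2 change -0.23) and without OTX1 MO stage 8 replicate 2 (log2 change -0.18). Of the 18 cyclin-CDK regulators, edgeR called 0 in double MO against OTX1 MO at both stages (all genes 3.74% and 2.68%). At such shares a list of 18 genes can hold none by its size alone.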

How the data were processed

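RNA-seq libraries of whole Xenopus tropicalis embryos, 44 in 22 groups of 2, were sequenced by the study. The deposited table holds raw read counts per gene with the gene's length. Per the submitters' processing notes the authors used fastp, STAR 2.7.0e, featureCounts 2.0.1 and deepTools. Strand setting, annotation and genome build were not given in the sources used here. Gene names were compared with RefSeq names of assembly UCB_Xtro_10.0, where 26459 of the 28778 table names were found, all 10 members among them.

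Genes were filtered with filterByExpr (minimum count 10, which removed 12714) and tested with edgeR 4.0.16 (R 4.3.3, limma 3.58.1): TMM factors, 1 quasi-likelihood fit over the 22 groups with 22 residual degrees of freedom, and Benjamini-Hochberg adjustment over 16064 genes per contrast. The SE is the size of the log2 change over the square root of its F. Means are over the 2 libraries with their SD. The computation was tested on simulated data. Alternatives were RLE factors, total counts alone, e2f1 left out of library sizes, no filter, a replicate block, a fit of only the libraries concerned, DESeq2 1.42.0, shares without length division, and each library left out with the gene set and the dispersion trend of the full fit held. The members and lists were chosen with earlier results of these data known. All members are named. Of each list, genes could be named from the called ones, at most 4 per comparison by size of change, if the higher group averaged 5 CPM or more. The text names some of them. Likeness is the highest Pearson's r over the 9 WT groups among genes with a symbol. Same-numbered libraries of different groups deviated together in 1 of 231 pairs (correlation over 0.1). No pairing by number was seen, and the main fit used none. With 2 libraries a group this check cannot exclude a pairing. No sequences are printed.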

Additional observations from a re-analysis of the deposited data

Results flagged for a closer look

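edgeR's test of the interaction of the 2 morpholinos called 6 members at stage 7, where 34.3% of all genes were called. Each value is the change made by the OTX1 morpholino with the E2F1 morpholino minus that without it, in log2 units. It was 0.42 (SE 0.091, adjusted p = 2.7e-04) for e2f3, 0.36 (SE 0.071, adjusted p = 7.4e-05) for e2f5 and 0.37 (SE 0.10, adjusted p = 0.0027) for tfdp1. The rb1 value was -0.48 (SE 0.089, adjusted p = 2.5e-05). It was 0.83 (SE 0.25, adjusted p = 0.0079) for rbl1 and -0.33 (SE 0.12, adjusted p = 0.024) for e2f8. The rbl1 difference was lost without OTX1 MO stage 7 replicate 1 (adjusted p = 0.062) and without double MO stage 7 replicate 1 (log2 change 0.55, adjusted p = 0.19), and over all alternatives its adjusted p ran from 0.0020 to 0.19. The e2f8 difference was lost without WT stage 7 replicate 1, WT stage 7 replicate 2, E2F1 MO stage 7 replicate 1, OTX1 MO stage 7 replicate 1 or double MO stage 7 replicate 1 (adjusted p = 0.050 to 0.10), and over all alternatives its adjusted p ran from 0.0011 to 0.10. At stage 8, where 35.9% of all genes were called, 4 members differed: rbl1 by 1.116 (SE 0.24, adjusted p = 2.8e-04), e2f7 by 0.78 (SE 0.14, adjusted p = 2.2e-05), e2f3 by 0.36 (SE 0.090, adjusted p = 0.0014) and e2f5 by 0.29 (SE 0.072, adjusted p = 0.0013). The zygotic marker sums of the 4 groups differed at both stages, and E2F1 MO alone of them has the other header style. The part of either in these differences was not tested.

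The effect of the E2F1 morpholino differed between stages 7 and 6 in 5 members, where 29.5% of all genes were called. Stage 7 minus stage 6 gave -0.47 (SE 0.091, adjusted p = 8.1e-05) for e2f3, -0.38 (SE 0.072, adjusted p = 5.6e-05) for e2f5 and -0.39 (SE 0.099, adjusted p = 0.0020) for tfdp1. The value was 0.24 (SE 0.095, adjusted p = 0.048) for e2f4 and 0.24 (SE 0.089, adjusted p = 0.042) for rb1. The e2f4 difference was lost without each of the 8 libraries in turn (adjusted p = 0.064 to 0.15), with total counts as the scaling, without the filter on low counts and with the replicate block, and over all alternatives its adjusted p ran from 0.012 to 0.15. The rb1 difference was lost without WT stage 6 replicate 1, WT stage 6 replicate 2, WT stage 7 replicate 1, WT stage 7 replicate 2, E2F1 MO stage 6 replicate 1, E2F1 MO stage 7 replicate 1 or E2F1 MO stage 7 replicate 2 (adjusted p = 0.070 to 0.18) and without the filter on low counts, and over all alternatives its adjusted p ran from 0.014 to 0.18. Stage 8 minus stage 7 gave -0.53 (SE 0.14, adjusted p = 0.0017) for e2f7, 0.35 (SE 0.099, adjusted p = 0.0038) for tfdp1 and -0.30 (SE 0.089, adjusted p = 0.0063) for rb1, where 39% of all genes were called. The zygotic marker sum was 36.8 to 37.4 CPM in E2F1 MO, against 0.937 to 1.02 CPM in WT, at stage 7, and 40.2 to 40.6 CPM in E2F1 MO, against 52.5 to 52.6 CPM in WT, at stage 8. Its part was not tested.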

How the results depend on the processing

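Of 153 called member results, 115 kept their direction and their call under each alternative run. The 153 include calls of e2f1 in E2F1 rescue against WT and against E2F1 MO. These calls reflect the injected mRNA and are no finding about the members. Calls were lost in 90 of the member results recomputed with 1 library left out, 11 without the filter, 10 with total counts alone (beside 2 more that also changed direction there, e2f3 at WT stage 10 over 9 and e2f8 at 13 over 10), 5 in fits of only the libraries concerned, 2 with DESeq2, 1 with RLE factors and 1 with the replicate block. Member results not called in the full fit gained a call in 10 recomputations with 1 library left out, 17 in fits of only the libraries concerned, 12 with total counts alone (beside e2f5 at WT stage 5 over 4, which changed direction), 11 without the filter, 11 with DESeq2, 6 with RLE factors, 5 with e2f1 left out of library sizes and 0 with the replicate block. For list genes named in the text 79 results were recomputed, not all of them printed above. Of the 869 recomputed values 20 lost the call, none with a change of direction. In E2F1 MO against WT the losses were in skp2 at stages 5 and 6 and rbl2 at stage 7. In E2F1 rescue against E2F1 MO they were in rbbp7 at stages 6 and 7 and mybl1 at stage 8. The rest were in rbbp7 in OTX1 MO against WT at stage 8. With 1 library left out, members called numbered 38 to 41 (41 in full) between adjacent WT stages, 9 to 10 (10 in full) for WT stage 9 over 3, 14 to 16 (16 in full) in E2F1 MO against WT and 10 to 13 (12 in full) in E2F1 rescue against WT. They numbered 7 to 10 (9 in full) in E2F1 rescue against E2F1 MO, 12 to 14 (14 in full) in OTX1 MO against WT, 14 to 17 (16 in full) in double MO against WT and 9 to 11 (11 in full) in double MO against the single morpholinos. For the interaction they were 8 to 11 (10 in full) over both stages, and for differences of the E2F1 MO effect 6 to 8 (8 in full) over all stage pairs. The lone library of such a group is assumed to vary like the other groups. The e2f1 share at WT stage 10 minus stage 3 was -33.1 percentage points, -40.6 without length division and -33.3 to -32.8 with 1 library left out. Division by length fixes how much each gene weighs in the sum.

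Total counts alone turned the direction of 4 member results in WT, with log2 changes of 0.14 for e2f5 at stage 5 over 4 (-0.021 with TMM), -0.078 for e2f3 at 10 over 9 (0.16), -0.039 for e2f8 at 13 over 10 (0.25) and 0.22 for e2f5 at 9 over 3 (-0.34). That scaling moved the median of all genes by 0.16, -0.24, -0.28 and 0.56 in these comparisons, by 0.10 at 4 over 3 and by 0.14 at 7 over 6. RLE factors moved it by 0.20 at 13 over 10. With total counts alone the share of higher calls among all called genes was 85.1% at WT stage 4 over 3 (44.7% with TMM), 78.9% at 5 over 4 (47.9% with TMM), 83.7% at 6 over 5 (53.6% with TMM), 66.8% at 7 over 6 (51.4% with TMM) and 39.6% at 10 over 9 (51.7% with TMM). It was 71.6% in E2F1 MO against WT at stage 3 (43.1% with TMM), 79.0% at stage 4 (69.0% with TMM), 31.1% in E2F1 rescue against WT at stage 6 (51.0% with TMM), 1.79% in E2F1 rescue against E2F1 MO at stage 6 (33.3% with TMM) and 64.1% in double MO against OTX1 MO at stage 7 (43.9% with TMM).

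Correlations of the deviations of same-numbered libraries ran from -0.070 to 0.16 over 231 pairs of groups, and 22 of 44 libraries correlated best with their own number. With the replicate block the counts of members called in E2F1 MO against WT and between adjacent WT stages were again 16 and 41. The block ended 1 call, that of e2f4 in the E2F1 MO effect at stage 7 minus 6 (adjusted p = 0.057), and over all genes it called 7538 at E2F1 MO stage 7, against 7589 without it. In E2F1 rescue against E2F1 MO at stage 6 it called 12 of all genes, against 21. Depth limits rbl1 most, which stayed at or under 6.28 CPM in each library before WT stage 9.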
